A study of Mus musculus with 6 samples.

Results

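Expression of 10 genes of extracellular nucleotide and adenosine signalling was examined in mouse macrophages kept with the 5-HT2B agonist BW723C86 or with its vehicle. The genes were taken by symbol: the receptors P2rx4, P2rx7, P2ry2, P2ry6, P2ry12, P2ry13, P2ry14 and Adora2b and the ectoenzymes Entpd1 and Nt5e. All 10 were found among the 28822 gene identifiers of the table and all 10 passed the filter on expression, which left 15567 genes to test. The series held 6 RNA-seq libraries of bone marrow-derived macrophages (BMDMs), 3 from co-cultures treated with BW723C86 and 3 from co-cultures treated with DMSO. In both groups the macrophages were in Transwell inserts. Below them were HT22 cells, neuron-like cells derived from mouse hippocampus, which had been deprived of oxygen and glucose for 2 h. No culture with healthy HT22 cells, or without them, was analysed here. The sample labels name the BMDMs together with HT22, and the design text allows BV2 microglia in place of BMDMs. The sources used here do not give the dose, the time of exposure, the age of the mice or the number of separate cultures.

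Cells that are injured or deprived of energy release ATP, UTP and UDP, which neighbouring phagocytes sense through the P2X ion channels and the G protein-coupled P2Y receptors. On the cell surface ATP and ADP are cut to AMP by CD39, the product of Entpd1, and AMP is cut to adenosine by CD73, the product of Nt5e. Adenosine then acts on its own receptors, of which the low-affinity one encoded by Adora2b responds when adenosine is high. In macrophages and microglia these genes are known for chemotaxis towards damaged cells, for phagocytosis and for the control of interleukin-1 release.

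Total counts ran from 59971346 to 72562020 in the BW723C86 libraries and from 58841307 to 75931615 in the DMSO libraries. Of all tested genes 42% changed between the groups (6534 of 15567). The macrophage genes Csf1r and Adgre1 averaged 1060 and 390 CPM in BW723C86 libraries and 738 and 689 CPM in DMSO libraries. CPM, a gene's count relative to its library's TMM-scaled total, is the unit except where stated, and means are over 3 libraries a group. Of 12 macrophage markers tested, 6 rose and 5 fell, and their sum was 34500 to 35600 CPM in BW723C86 libraries and 38900 to 39800 CPM in DMSO libraries, most of it Lyz2 (means of 29400 CPM with BW723C86 and 32900 CPM with DMSO). Of the 12 neuronal markers listed, 8 were in the table, Map2, Nefl and Dcx had no count in any library, and the list summed to 0.375 to 0.924 CPM in BW723C86 libraries and to 0 to 0.668 CPM in DMSO libraries. Lists of markers of other myeloid cells differed strongly between the groups. All 10 tested monocyte markers fell, with sums of 1850 to 1950 CPM in BW723C86 libraries and 8710 to 8800 CPM in DMSO libraries. Most of that was Chil3, Fn1 and Thbs1 with DMSO, and Chil3, F10 and Fn1 with BW723C86. The means of Chil3, Fn1 and Thbs1 were 1100, 243 and 61.5 CPM with BW723C86 and 3200, 2170 and 2220 CPM with DMSO. F10 averaged 303 CPM with BW723C86 and 487 CPM with DMSO. Ly6c2 averaged 39.6 CPM with BW723C86 and 300 CPM with DMSO. The fall of Ccr2 was smaller, from 169 CPM with DMSO to 118 CPM with BW723C86. All 10 tested neutrophil markers fell, with sums of 715 to 821 CPM in BW723C86 libraries and 2650 to 2730 CPM in DMSO libraries. Most of those sums was Mmp8, with means of 716 CPM in BW723C86 libraries and 2420 CPM in DMSO libraries, while S100a8 averaged 4.7 CPM with BW723C86 and 49.6 CPM with DMSO. Of 9 dendritic cell markers tested, 7 rose and none fell, with sums of 4600 to 4920 CPM in BW723C86 libraries and 970 to 974 CPM in DMSO libraries. Nearly all of that was Itgax (means of 2360 CPM with BW723C86 and 471 CPM with DMSO) and H2-Aa (2300 CPM with BW723C86 and 428 CPM with DMSO), which macrophages can also express. Of the more specific markers, Cd209a averaged 30.8 CPM with BW723C86 and 7.77 CPM with DMSO. Clec9a averaged 8.72 CPM with BW723C86 and 3.35 CPM with DMSO. Zbtb46 averaged 5.85 CPM with BW723C86 and 2.7 CPM with DMSO, and Flt3 and Xcr1 were below 1 CPM in every library. In bulk RNA, fewer cells of a type and less RNA per cell cannot be told apart. The part of such cells in the changes of the 10 genes was not tested.

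The DNA before the start sites of 4 genes is shown because these genes fell by about 2-fold or more and have a single annotated start. Each run is the 250 bases before the start, 5′ to 3′ on the gene's strand, from RefSeq on build GRCm38.p6, which is older than the GRCm39 build named in the submitters' processing notes. The Nt5e window is chr9:88327359-88327608 (plus strand) and that of Adora2b chr11:62248734-62248983 (plus strand). The P2ry12 window is chr3:59262986-59263235 and that of P2ry13 chr3:59210883-59211132 (both minus strand). Capitals mark matches, on either strand, to ACGTG (a form of the core of the hypoxia-inducible factor site) and TGACGTCA (cyclic AMP response element). They also mark TGANTCA (AP-1), GAGGAA (core of the PU.1 site) and GGGCGG (GC box). The other form of that hypoxia-inducible factor core, GCGTG, was not searched for and is not marked.
Nt5e: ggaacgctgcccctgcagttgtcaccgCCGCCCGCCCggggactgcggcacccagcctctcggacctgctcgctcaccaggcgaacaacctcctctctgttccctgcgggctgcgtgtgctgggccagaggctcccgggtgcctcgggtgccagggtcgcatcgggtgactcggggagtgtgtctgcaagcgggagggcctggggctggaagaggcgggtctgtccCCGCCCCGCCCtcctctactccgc
Adora2b: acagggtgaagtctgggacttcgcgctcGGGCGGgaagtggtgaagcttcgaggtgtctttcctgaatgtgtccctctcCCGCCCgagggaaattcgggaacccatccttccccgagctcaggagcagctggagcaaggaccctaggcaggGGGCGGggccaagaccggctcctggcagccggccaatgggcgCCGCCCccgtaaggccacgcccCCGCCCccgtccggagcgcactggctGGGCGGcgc
P2ry12: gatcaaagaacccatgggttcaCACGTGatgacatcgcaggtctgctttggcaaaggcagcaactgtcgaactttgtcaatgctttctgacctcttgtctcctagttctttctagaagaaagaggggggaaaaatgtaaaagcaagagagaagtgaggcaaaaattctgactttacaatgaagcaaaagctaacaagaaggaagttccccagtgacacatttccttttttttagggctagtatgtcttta
P2ry13: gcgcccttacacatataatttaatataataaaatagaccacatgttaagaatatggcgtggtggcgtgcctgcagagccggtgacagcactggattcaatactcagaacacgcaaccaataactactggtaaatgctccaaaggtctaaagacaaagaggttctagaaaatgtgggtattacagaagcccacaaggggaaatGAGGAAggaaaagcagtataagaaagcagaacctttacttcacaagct
The Nt5e and Adora2b windows held 4 and 6 matches to the GC box, some of them overlapping in Nt5e. Neither window matched any of the other motifs that were searched for. The P2ry12 window held a single CACGTG, which reads ACGTG on both strands, and the P2ry13 window a single GAGGAA. Of all 32817 promoter windows of this length, 32.7% held the GC box, 16.6% ACGTG and 23.3% GAGGAA. The AP-1 motif was in 6.75% and the cyclic AMP response element in 1.55% of them. Promoter sequences were found for 9 of the 10 genes, in 15 windows. Genes that did not fall held such matches too. A window of P2ry2 held CACGTG and 4 matches to the GC box, and a window of Entpd1 held 2 matches to GAGGAA. The P2rx4 window held no match. Any part of these motifs in the changes was not tested.

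With BW723C86, 4 of the 10 genes rose, 5 fell and P2ry2 did not pass the test. Among all tested genes 21.3% rose and 20.7% fell, and among the 10092 genes with a mean of at least 5 CPM, as all 10 had, 52.6% changed, 26.7% upwards and 26% downwards. None of the 4 rose by 2-fold or more, as 4.41% of all tested genes did. The median log2 fold change of the 10 was -0.14, against 0 over all tested genes, and their median size regardless of sign was 0.61, against 0.27. A gene was called when its adjusted p, from edgeR's quasi-likelihood test with Benjamini-Hochberg adjustment over all tested genes, was under 0.05. All adjusted p-values given for genes come from that fit, except where another setting is named. Every fold change is BW723C86 over DMSO. The libraries of the groups did not overlap for any of the 10 genes, P2ry2 included. That held for 52.3% of all tested genes. The labels do not say that the libraries came from separate cultures, so the p-values measure the spread between these libraries, which may be technical.

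**Figure D1:**
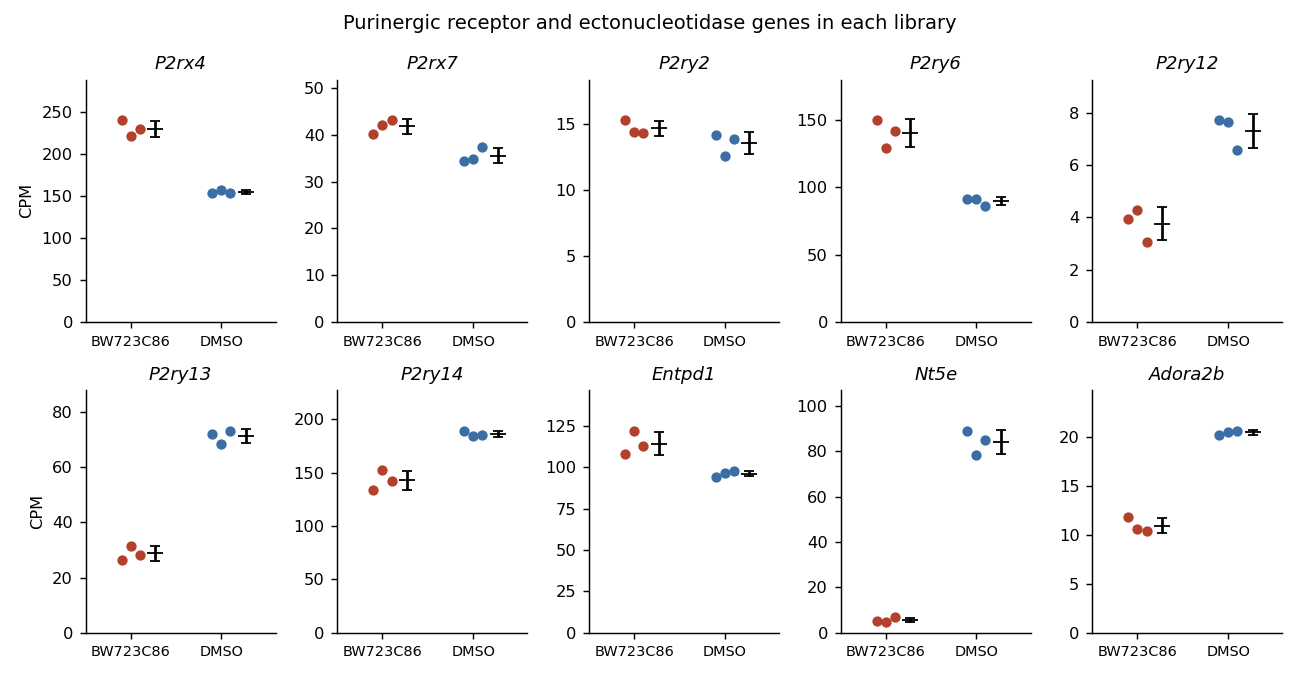
Level of each of the 10 genes in every library, in CPM on axes that start at 0, with BW723C86 libraries in red at the left and DMSO libraries in blue at the right of each panel; black bars give the mean and SD of 3 libraries. Nt5e shows the widest gap relative to its level, 4.91 to 6.79 CPM with BW723C86 and 78.6 to 89.1 CPM with DMSO, while the P2ry2 groups nearly touch.

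The ectoenzymes parted. Nt5e (ENSMUSG00000032420), which encodes the AMP-cutting enzyme CD73, had 5.16, 4.91 and 6.79 CPM in BW723C86 libraries 1 to 3, against 89.1, 78.6 and 85 CPM in DMSO libraries 1 to 3. Every BW723C86 library was more than 10-fold below every DMSO library. The mean was 5.62 ± 1.02 CPM with BW723C86 and 84.2 ± 5.3 CPM with DMSO (SD, n = 3 each), a 15-fold lower level (log2 fold change -3.91, SE 0.11, adjusted p = 2.1e-11). By log2 fold change Nt5e ranked 52 from the lowest of 15567 tested genes. Nt5e and P2ry13 were the genes of the set that passed with a fall of at least 2-fold, as did 4.05% of all tested genes. The counts behind the low group were 296, 353 and 402.

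Entpd1 (ENSMUSG00000048120), encoding the ATP- and ADP-cutting enzyme CD39, went the other way by little. It had 108, 122 and 113 CPM in BW723C86 libraries, against 94.3, 96.6 and 97.6 CPM in DMSO libraries. All BW723C86 libraries lay above all DMSO libraries, with a rise of 1.19-fold (log2 fold change 0.25, SE 0.05, adjusted p = 0.0017). Within a library the ratio of Entpd1 to Nt5e counts does not depend on scaling. That ratio was 20.9, 24.8 and 16.6 in BW723C86 libraries, against 1.06, 1.23 and 1.15 in DMSO libraries.

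Adora2b (ENSMUSG00000018500), the receptor gene at the adenosine end of this chain, also fell. It had 11.8, 10.6 and 10.4 CPM in BW723C86 libraries and 20.2, 20.5 and 20.6 CPM in DMSO libraries. The groups were well apart, the DMSO libraries lay close together, and the log2 fold change was -0.90 (SE 0.08, adjusted p = 1.5e-06).

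Among the Gi-coupled P2Y receptors, all 3 fell. P2ry13 (ENSMUSG00000036362), encoding an ADP receptor, had 26.4, 31.5 and 28.3 CPM in BW723C86 libraries and 72.1, 68.2 and 73.1 CPM in DMSO libraries. The groups were far apart, and the log2 fold change was -1.31 (SE 0.07, adjusted p = 7e-09). P2ry12 (ENSMUSG00000036353), encoding the ADP receptor through which microglia extend processes and platelets aggregate, was the lowest of the 10 genes in DMSO libraries per length. It had 3.96, 4.28 and 3.06 CPM in BW723C86 libraries and 7.72, 7.64 and 6.57 CPM in DMSO libraries, with counts of 181 to 308 with BW723C86 and 461 to 600 with DMSO. The groups did not overlap, and the log2 fold change was -0.95 (SE 0.15, adjusted p = 0.00021).

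P2ry14 (ENSMUSG00000036381), whose product senses UDP-glucose, changed less. It had 134, 152 and 142 CPM in BW723C86 libraries and 189, 184 and 185 CPM in DMSO libraries (log2 fold change -0.38, SE 0.05, adjusted p = 4.8e-05). The groups did not overlap. The fall was unequal within the trio. There were 0.196, 0.207 and 0.2 P2ry13 counts per P2ry14 count in BW723C86 libraries, against 0.382, 0.37 and 0.395 in DMSO libraries, with no overlap. The ratio of P2ry12 to P2ry13 counts, 0.108 to 0.15 with BW723C86 and 0.0898 to 0.112 with DMSO, overlapped between the groups.

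The Gq-coupled nucleotide receptors did not share that direction. P2ry6 (ENSMUSG00000048779), encoding the UDP receptor that drives phagocytosis in microglia, had 150, 129 and 142 CPM in BW723C86 libraries and 91.3, 91.7 and 86.3 CPM in DMSO libraries. It rose 1.56-fold, with every BW723C86 library above every DMSO library (log2 fold change 0.65, SE 0.06, adjusted p = 1.2e-06). P2ry2 (ENSMUSG00000032860), encoding the receptor for ATP and UTP, had 15.3, 14.4 and 14.3 CPM in BW723C86 libraries and 14.2, 12.6 and 13.9 CPM in DMSO libraries. Its lowest BW723C86 library lay just above its highest DMSO library, and it did not pass (log2 fold change 0.11, 95% interval -0.07 to 0.29, adjusted p = 0.32).

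Both ATP-gated channel genes of the set were higher with BW723C86. P2rx4 (ENSMUSG00000029470), encoding a channel found largely on lysosomes in resting macrophages, had 240, 221 and 229 CPM in BW723C86 libraries and 154, 157 and 153 CPM in DMSO libraries. The groups were far apart and the rise was 1.49-fold (log2 fold change 0.57, SE 0.05, adjusted p = 4.4e-07). P2rx7 (ENSMUSG00000029468), encoding the channel that needs high ATP and triggers the NLRP3 inflammasome, had 40.1, 42.1 and 43.1 CPM in BW723C86 libraries and 34.4, 34.7 and 37.3 CPM in DMSO libraries. Its rise was 1.18-fold (log2 fold change 0.23, SE 0.06, adjusted p = 0.0065) and was not called when libraries were scaled by their totals alone (0.16, adjusted p = 0.056). The number of P2rx4 counts per P2rx7 count was 5.26 to 5.99 in BW723C86 libraries and 4.11 to 4.53 in DMSO libraries.

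**Figure D2:**
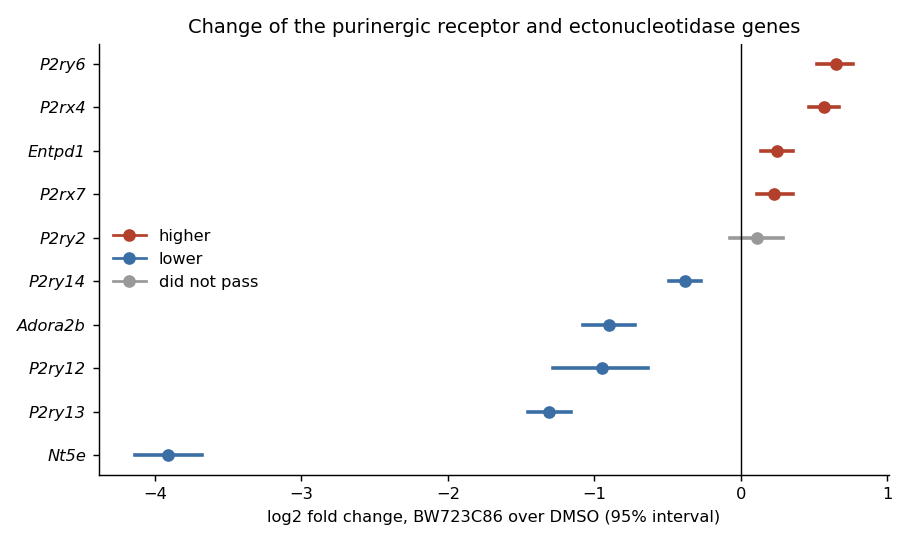
Log2 fold change of each gene, BW723C86 over DMSO, with its 95% interval from the fit over all genes; red marks genes that rose, blue genes that fell and grey the gene that did not pass. Nt5e at -3.91 stands apart from the other 9, which lie between -1.31 and 0.65.

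Spread between libraries was small for most of the genes. The coefficient of variation ran from 3.61% for P2ry2 to 18.2% for Nt5e in BW723C86 libraries and from 1.01% for Adora2b to 8.83% for P2ry12 in DMSO libraries. Levels of different genes were compared per kilobase of annotated exon. With BW723C86 the order was P2ry6 (48.6 ± 3.67 CPM per kb), P2rx4 (32.7), Entpd1 (20.5), P2ry14 (12.9), P2ry13 (11.4), P2rx7 (7), Adora2b (5.93), P2ry2 (3.73), P2ry12 (1.48) and Nt5e (0.653 ± 0.119). In that order P2ry14 and P2ry13 overlapped between libraries and the other neighbours did not. With DMSO the order was P2ry6 (31.1 ± 1.04 CPM per kb), P2ry13 (28.1), P2rx4 (22), Entpd1 (17.2), P2ry14 (16.8), Adora2b (11.1), Nt5e (9.79 ± 0.615), P2rx7 (5.94), P2ry2 (3.45) and P2ry12 (2.87). There Entpd1 and P2ry14 overlapped and the other neighbours did not. Thus P2ry6 led in both groups, Nt5e had rank 10 with BW723C86 and rank 7 with DMSO, and P2ry13 had rank 5 with BW723C86 and rank 2 with DMSO. When the longest annotated transcript was taken as the length, a choice made after seeing the data, the order with BW723C86 was the same, and with DMSO P2rx4 and P2ry13, P2ry14 and Entpd1, and Nt5e and Adora2b changed places.

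**Figure D3:**
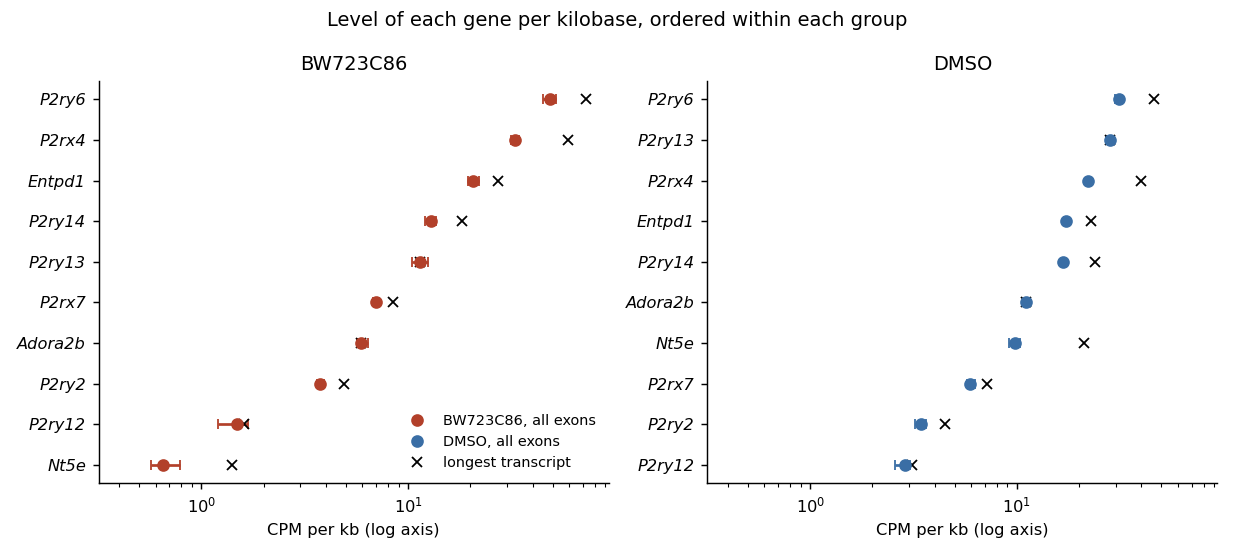
Level of each gene in CPM per kilobase on a log axis, BW723C86 at the left and DMSO at the right, each ordered from highest to lowest; points are means of 3 libraries over the length of all exons, bars run from the lowest to the highest library, and crosses use the longest annotated transcript. P2ry6 is at the top of both panels, and Nt5e is at 0.653 with BW723C86 and 9.79 with DMSO.

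Of the 10 genes, 7 lie in groups of close genomic neighbours. P2ry14, P2ry13 and P2ry12 lie close together on chromosome 3, P2rx7 and P2rx4 adjoin on chromosome 5, and P2ry6 and P2ry2 adjoin on chromosome 7. On chromosome 3 every tested gene of the stretch fell. Beside the 3 receptors these were Gpr171, a receptor gene next to P2ry14, at -0.39 on the log2 scale (adjusted p = 0.00056), and Med12l, which encodes a Mediator subunit, at -1.26 (adjusted p = 6.3e-05). Med12l overlaps all 3 receptor genes on the opposite strand. The libraries were strand-marked, but the strand setting of the counting was not stated, so reads of Med12l (3.02 CPM over all libraries) and of the receptors it spans may not be told apart. Of the flanking genes, Igsf10 was too low to test.

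At the other loci the flanking genes were mixed. Next to P2rx7 and P2rx4, Anapc5, a subunit gene of the anaphase-promoting complex, rose by 0.52 (SE 0.04, adjusted p = 4.9e-07). Camkk2, a calmodulin-dependent kinase kinase gene that lies between P2rx4 and Anapc5, was at 0.05 (adjusted p = 0.51), and Atp2a2, a calcium pump gene, at 0.06 (adjusted p = 0.35). Ift81, next to P2rx7, was at -0.81 and was not called (SE 0.40, adjusted p = 0.12). On chromosome 7, Relt, of the TNF receptor family, fell by 0.48 (SE 0.08, adjusted p = 0.00032). Arhgef17, an exchange factor gene between Relt and P2ry6, was low (0.99 CPM over all libraries) and rose by 0.93 (SE 0.28, adjusted p = 0.017), as P2ry6 did. On the other side of P2ry2, Fchsd2 and Atg16l2 were at 0.09 and 0.20 and were not called (adjusted p = 0.44 and 0.14). Around Nt5e, Cep162 and Syncrip fell by 0.42 and 0.34 on the log2 scale (adjusted p = 0.0026 and 0.00011) and Snx14 was at 0.04 (adjusted p = 0.57). Of the 4 genes next to Adora2b, Akap10 rose by 0.22 (adjusted p = 0.018) and Specc1, Zswim7 and Ttc19 did not pass. Next to Entpd1, Tctn3 rose by 0.50 (adjusted p = 0.0011), while Aldh18a1 and Ccnj were at -0.03 and -0.01 and were not called (adjusted p = 0.73 and 0.97).

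**Figure D4:**
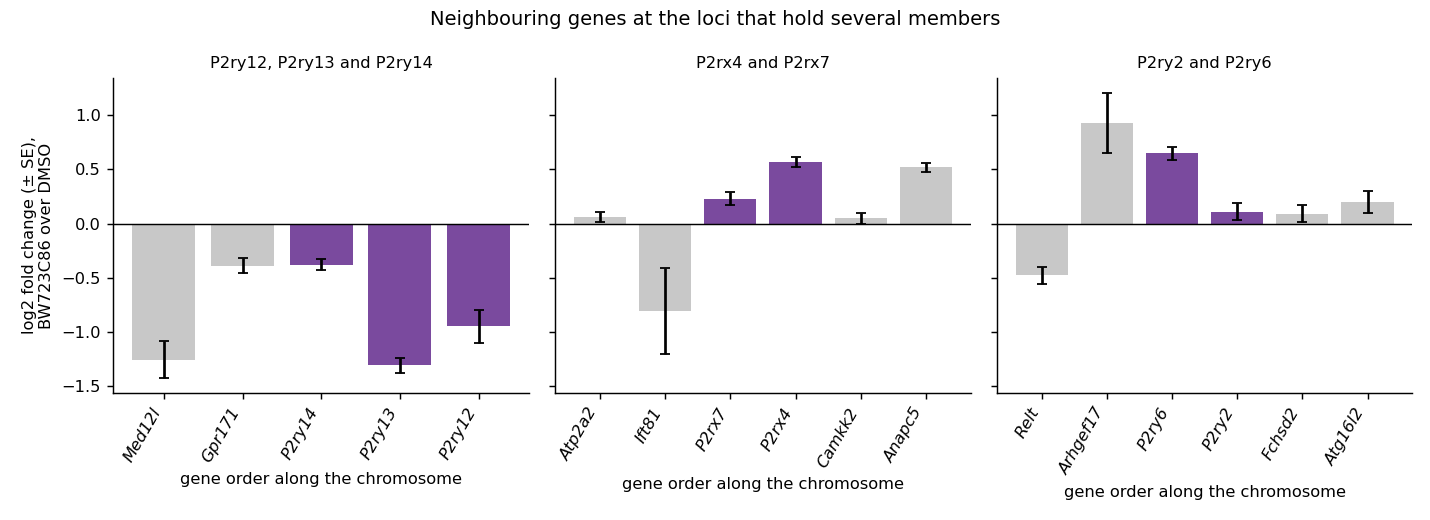
Log2 fold change, BW723C86 over DMSO, of the genes at the 3 loci that hold several of the 10 genes, tested genes only, in their order along the chromosome in RefSeq and not to distance; purple bars are genes of the set, grey bars their neighbours, and error bars are SE. All 5 tested genes of the P2ry12, P2ry13 and P2ry14 stretch are below 0, from -0.38 to -1.31.

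The rest of the pathway was read from 8 lists with 61 genes, of which 55 were in the table and 45 were tested. Of these, 15 rose, 12 fell and 18 did not pass, so that 60% changed, against 42% of all tested genes. With library totals alone as scaling, 11 rose and 14 fell. The median log2 fold change of the 45 was 0.12.

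Of 4 other P2X receptor genes tested, 1 rose, 1 fell and 2 did not pass. P2rx1, encoding a fast-desensitising ATP channel of myeloid cells and platelets, had 1.99, 1.67 and 1.49 CPM in BW723C86 libraries and 6.3, 5.47 and 5.32 CPM in DMSO libraries, a fall of 1.73 on the log2 scale (SE 0.17, adjusted p = 2.9e-06). Every BW723C86 library lay below every DMSO library. P2rx5 rose to 29 ± 0.81 CPM with BW723C86, against 13.4 ± 0.38 CPM with DMSO (SD, n = 3 each; adjusted p = 3.9e-08 in edgeR's fit). Of 3 other P2Y and related receptor genes tested, 2 rose and 1 fell. P2ry1, an ADP receptor gene, rose by 0.28 (adjusted p = 0.015, and 0.069 with library totals alone), and P2ry10b by 0.62 (adjusted p = 4.7e-05), while P2ry10 fell by 0.49 (adjusted p = 0.0067). P2ry10 and P2ry10b, counted here among the related receptors, are paralogs, and their reads may have been split between them.

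Of 2 other adenosine receptor genes tested, Adora3 fell, with 23.3 ± 1.19 CPM in BW723C86 libraries and 31 ± 2.21 CPM in DMSO libraries (log2 fold change -0.41, adjusted p = 0.00048 in edgeR's fit, SD, n = 3). Adora2a, encoding the high-affinity Gs-coupled receptor, was at 1.82 ± 0.406 CPM with BW723C86 and 2.57 ± 0.311 CPM with DMSO, with overlapping libraries. It was not called (adjusted p = 0.083, and 0.043 with library totals alone). None of the 3 tested adenosine receptor genes rose.

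Other ectoenzymes that cut nucleotides moved both ways, with 1 of 5 tested genes higher, 3 lower and 1 not past. Cd38, encoding an NAD-consuming ectoenzyme, had 2.77, 3.7 and 2.96 CPM in BW723C86 libraries and 29.1, 33.4 and 30.1 CPM in DMSO libraries, 9.76-fold lower (log2 fold change -3.29, SE 0.11, adjusted p = 1.2e-10). Acpp, encoding a phosphatase that, like CD73, can cut AMP to adenosine, had 88, 96.1 and 90.8 CPM in BW723C86 libraries and 216, 211 and 205 CPM in DMSO libraries (log2 fold change -1.20, SE 0.05, adjusted p = 5.3e-10). The groups were far apart for both genes. Bst1, of the CD38 family, fell by 0.38 (adjusted p = 4.8e-05). Enpp1, encoding an enzyme that cuts ATP to AMP and pyrophosphate, rose to 16.4 ± 1.69 CPM, against 8.17 ± 0.291 CPM with DMSO (log2 fold change 1.00, adjusted p = 2.9e-06 in edgeR's fit, SD, n = 3). Entpd3, a CD39 relative, was at 18.3 ± 3.03 CPM with BW723C86 and 20.7 ± 0.801 CPM with DMSO and was not called (adjusted p = 0.19 in edgeR's fit, and 0.048 with library totals alone). Alpl and Entpd8 had no count in any library.

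Of the genes of nucleotide release, 5 of 6 tested rose and none of the tested ones fell, while 21.3% of all tested genes rose. Calhm6, among those that rose, was low, at 1.43 CPM with BW723C86 and 0.715 CPM with DMSO. Gja1, too low to test, had 0, 4 and 0 counts in BW723C86 libraries and 17, 8 and 16 in DMSO libraries. Ank, encoding an exporter of ATP and pyrophosphate, was at 47.2 ± 2.06 CPM with BW723C86 and 26.7 ± 1.11 CPM with DMSO (adjusted p = 2.3e-07 in edgeR's fit, SD, n = 3). Panx1, the pannexin channel gene, rose by 0.48 (SE 0.07, adjusted p = 0.00013) and Calhm2 by 0.78 (SE 0.10, adjusted p = 3.8e-05). Slc17a9, the vesicular nucleotide transporter gene, was at 0.06, and at -0.02 with library totals alone, and was not called (adjusted p = 0.79). Of 10 genes of adenosine uptake and conversion, 4 rose and 6 did not pass. Slc29a1, encoding the equilibrative nucleoside transporter of the plasma membrane, had 233, 196 and 215 CPM in BW723C86 libraries and 107, 117 and 114 CPM in DMSO libraries (log2 fold change 0.93, SE 0.06, adjusted p = 7.6e-08). Slc29a3, its lysosomal relative, rose by 0.80 (SE 0.05, adjusted p = 6e-08). Pnp and Ahcy rose by 0.18 and 0.20, and neither passed with library totals alone (adjusted p = 0.059 and 0.14). Adk and Ada, encoding the kinase and the deaminase that clear adenosine, were at -0.04 and -0.14 and were not called (adjusted p = 0.67 and 0.7).

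Of 5 intracellular relatives of CD39, Entpd5 and Entpd6 rose by 0.42 and 0.26 and the other 3 did not pass, with Entpd6 not passing with library totals alone (adjusted p = 0.15). Entpd4 and Entpd4b are near copies and may share reads. Among 10 tested genes linked to pannexin and P2X7 function, 6 fell and 4 did not pass. Pycard, the inflammasome adaptor gene, had 167, 139 and 165 CPM in BW723C86 libraries and 225, 238 and 229 CPM in DMSO libraries (log2 fold change -0.56, SE 0.06, adjusted p = 1.4e-05). Nlrp3, the sensor gene, fell by 0.31 (SE 0.06, adjusted p = 0.00072), and Il1b by 2.44 (SE 0.24, adjusted p = 1.5e-05). Casp1, encoding the protease of that complex, was at 0.10 and was not called (adjusted p = 0.16). P2rx7 rose, a call that was lost with library totals alone, while Pycard, Nlrp3 and Il1b fell.

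**Figure D5:**
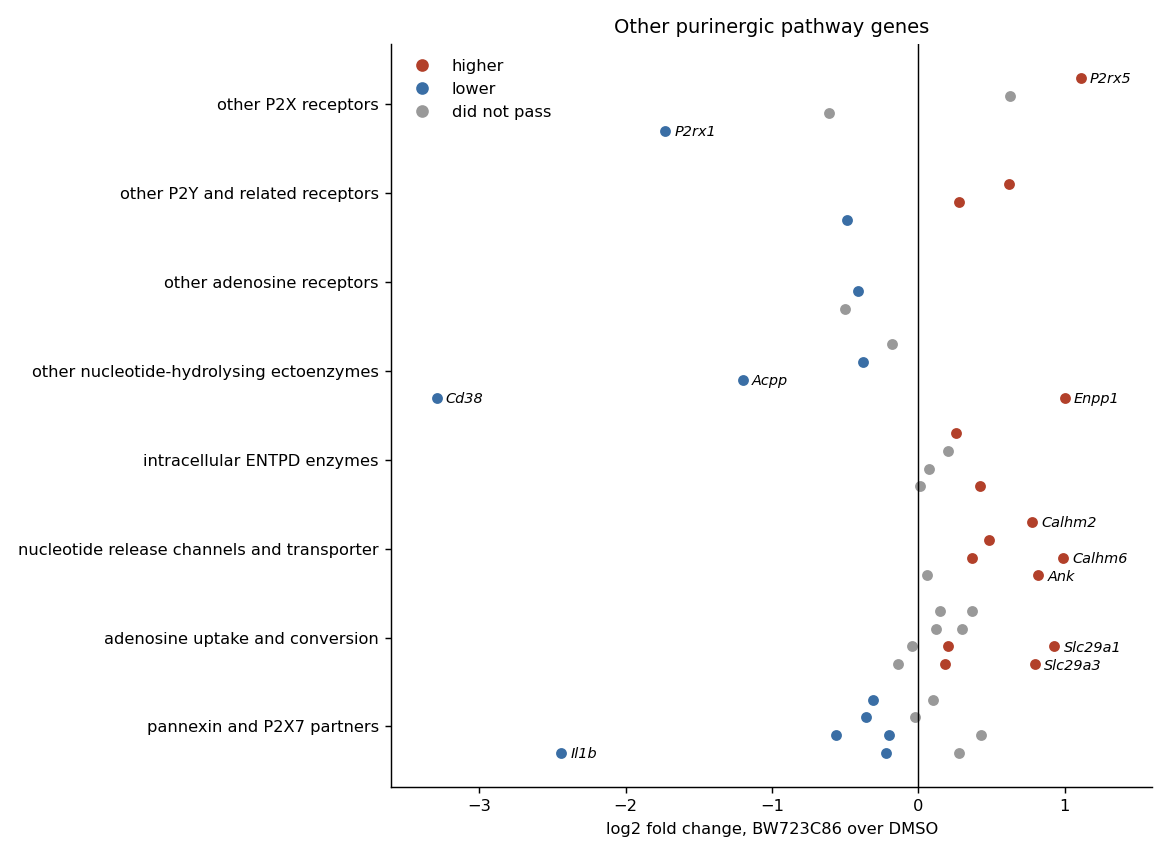
Log2 fold change, BW723C86 over DMSO, of 45 tested genes in 8 lists of the purinergic pathway; each point is a gene, red if it rose, blue if it fell and grey if it did not pass, and names mark called genes with a change of at least 0.75 in size. Cd38 at -3.29 lies farthest to the left and 5 of the 6 nucleotide release genes are called higher.

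P2ry12 and P2ry13 are known as genes of resting microglia, so other microglial genes were set beside them. They moved both ways. Tmem119, a surface marker of microglia, had 4.29, 4.77 and 3.78 CPM in BW723C86 libraries and 25.6, 31.1 and 28.2 CPM in DMSO libraries (log2 fold change -2.72, SE 0.11, adjusted p = 4.8e-10). Gpr34, a lysophosphatidylserine receptor gene related to the P2Y12 family, had 1.03, 1.5 and 1.91 CPM in BW723C86 libraries and 10.2, 7.89 and 9.18 CPM in DMSO libraries (log2 fold change -2.62, SE 0.20, adjusted p = 3.1e-07). Both genes were lower in every BW723C86 library than in any DMSO library. Fcrls rose by 1.07 (adjusted p = 1e-08), with means of 196 CPM with BW723C86 and 93.3 CPM with DMSO. Olfml3 rose by 1.18 (adjusted p = 0.006) but was low, at 1.3 CPM with BW723C86 and 0.574 CPM with DMSO. Sparc and Slc2a5, further microglial genes, had at most 14 counts in any library. Sall1, which defines microglia, was not found by symbol among the gene identifiers.

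P2ry12 and P2rx1 are also genes of platelets. Of 5 platelet and megakaryocyte markers tested, 2 fell and 3 did not pass. Their list summed to 8.1 to 12.4 CPM in BW723C86 libraries and 16 to 16.7 CPM in DMSO libraries. The defining marker Gp9 had at most 13 counts in any library, while Itga2b was at 6.71 ± 1.15 CPM with BW723C86 and 10.4 ± 0.066 CPM with DMSO (SD, n = 3 each). Of the fibroblast markers, Lum had no count, and the defining Dcn and Col1a1 had at most 8 and 14 counts in any library. The list summed to 2.21 to 3.54 CPM with BW723C86 and 5.4 to 5.91 CPM with DMSO. Of its 3 tested genes 1 fell, Thy1, at 1.15 CPM with BW723C86 and 3.58 CPM with DMSO. Mast cell and basophil markers (4 of 6 tested fell) summed to 68.5 to 72.1 CPM with BW723C86 and 139 to 147 CPM with DMSO. Lymphocyte markers (4 of 6 tested fell) summed to 3.45 to 4.49 CPM with BW723C86 and 7.97 to 11.8 CPM with DMSO.

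The genes whose levels followed those of a called gene most closely were taken by Pearson's r of log2 CPM over the 6 libraries, among genes with a mean of at least 5 CPM. For Nt5e these were Mier1 (0.9998), Csf2rb2 (0.9995) and Wfdc21 (0.9993). For P2rx4 they were Timp2 (0.9998), Glmp (0.9996) and Cxcl16 (0.9993). The 6 libraries form 2 groups that differ, so an r this high mostly restates the difference between the groups. It does not show that the genes follow each other within a group. Genes matched in this way changed by different sizes. The log2 fold changes were -0.53 for Mier1, -0.41 for Csf2rb2 and -3.36 for Wfdc21.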

How the data were processed

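The members and gene lists were chosen with earlier results of these data known. Per the labels' protocols, poly(A) RNA was made into dUTP strand-marked libraries and sequenced as paired ends. Per the submitters' processing notes the tools included fastp, HISAT2, StringTie and edgeR. The same notes list GRCm39 and GRCh38 as builds, and neither versions nor roles are stated. Each deposited value is an estimated count of a gene, given as a whole number. There were 4613 values of 4, 2904 of 3 and 2552 of 5, so that a count need not be a fragment. Of 28822 identifiers, 27005 matched a symbol in a table of gene names. Exon lengths and overlaps came from GENCODE M21 (GRCm38). The strand setting of the counting was not stated. Gene neighbours and promoters came from RefSeq on GRCm38.p6.

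The 6 libraries were grouped by treatment label, 3 against 3. No 2 libraries of a group agreed within sampling noise (chi-square per degree of freedom 9.83 to 35.5, and 2.46 to 8.88 with counts divided by 4), so all were kept. Genes were tested by edgeR 4.0.16 (R 4.3.3; filterByExpr, TMM, robust quasi-likelihood F test, two-sided, Benjamini-Hochberg over all 15567 tested genes, threshold 0.05), and the test was checked on simulated counts. A floor of 3 counts is 0.03951 to 0.05098 CPM on library totals without TMM scaling, and covers counting error only. All 10 members were named, with pathway genes past the threshold at a mean of at least 1 CPM (at least the 2 of smallest p in each direction of each list), up to 2 flanking genes a side, and defining markers. Genes named although they did not pass, and some markers, were chosen after their values were seen. Some genes are not reported here. Marker sums were compared by exact permutation (3 against 3 allows no p below 0.1, the value that all lists but the neuronal one gave). Alternatives were RLE, upper-quartile and total-count scaling, other filters, DESeq2 1.42.0, limma-voom (limma 3.58.1), a non-robust fit, counts divided by 4, the replicate number as a block and each library left out.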

Additional observations from a re-analysis of the deposited data

How the results depend on the processing

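All 10 genes kept their direction under each of 16 alternatives, and 9 kept their side of the threshold in each. The exception was P2rx7, not called with library totals alone (log2 fold change 0.16, adjusted p = 0.056; its adjusted p over the alternatives ran from 0.0041 to 0.056). That scaling gave 3 genes higher in place of 4 and moved the median of all tested genes to -0.07. Nt5e ran from -4.07 to -3.83 with a library left out, and the number of all genes called from 5387 to 7153. For the other pathway genes the same runs gave 12 to 16 higher and 11 to 14 lower. Replicate numbers are shared by the groups, but same-numbered libraries did not deviate together (correlations of 0.03, -0.02 and 0), so the numbers were not taken as pairs. With the replicate block 6179 genes were called, 4 of the 10 higher and 5 lower, and 14 and 12 of the other pathway genes. The marker sums kept their direction under the scalings and left-out libraries. With the longest transcript as length, levels per kilobase moved by more than the spread between libraries for 7 of the 10 genes in each group. What depth limits most is P2ry12, whose lowest library had 181 counts, and the fold of genes under about 1 CPM, if a fragment is worth several counts.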
